A study of Homo sapiens with 6 samples.

Results

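The small nucleolar RNA (snoRNA) host genes were examined in HSC-4, a human oral squamous cell carcinoma cell line, after Notch signaling was inhibited with DAPT, a γ-secretase inhibitor. The members were all genes with the symbol SNHG followed by a number, together with GAS5, ZFAS1, EPB41L4A-AS1 and DANCR, and numbered 32 of the 58884 genes in the count tables. RNA was taken after 24 h from 3 cultures labelled control and 3 cultures given 50 µM DAPT, and sequenced after mRNA library construction. The study's methods describe the controls as DMSO vehicle, whereas the names of their count columns carry the letters GM and the deposited design text speaks of growth medium without naming DMSO. Where the controls lacked DMSO, DAPT and its vehicle cannot be told apart. All 6 libraries come from 1 cell line, the labels do not say whether the cultures were grown separately, and the p-values measure only the spread between these samples.

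Host genes of this type are transcribed into long non-coding RNAs whose introns carry snoRNAs. After splicing, the introns are trimmed to mature snoRNAs, which join proteins into snoRNPs: box C/D snoRNAs (the SNORD genes) guide 2′-O-methylation of ribosomal and spliceosomal RNA, and box H/ACA snoRNAs (the SNORA genes) guide pseudouridylation. The spliced exons that remain hold only short open reading frames, and for several host genes, GAS5 and SNHG1 among them, they are known substrates of nonsense-mediated decay, a pathway that acts on RNA while it is translated. Many host genes begin with a run of pyrimidines, the terminal oligopyrimidine start also found in ribosomal protein genes. Read counts over annotated exons, as analysed here, measure the host RNA and not the snoRNAs. Of the 135 SNORD and SNORA genes inside host genes, 47 overlap an annotated exon of their host. The annotated exons thus include stretches that other transcripts splice out. RNA that keeps these stretches was not told apart from spliced host RNA.

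The 30 bases around the start are shown for the 8 host genes that passed the test between the groups and for SNHG5 and SNHG32, whose values separated one DAPT library from the rest. The windows were taken from RefSeq promoters (GRCh38.p14) and hold 10 bases before the RefSeq start and 20 from the start on. Capitals mark a C followed by at least 4 pyrimidines that begins within 5 bases of the start, and a window with no capitals holds no such run.
ZFAS1 (chr20:49278632-49278661, plus strand): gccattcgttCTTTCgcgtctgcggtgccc
SNHG4 (chr5:139274091-139274120, plus strand): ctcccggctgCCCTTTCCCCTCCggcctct
SNHG19 (chr16:2155339-2155368, minus strand): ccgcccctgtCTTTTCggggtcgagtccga
SNHG5 (chr6:85678714-85678743, minus strand): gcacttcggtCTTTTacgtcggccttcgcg
SNHG32 (chr6:31834906-31834935, plus strand): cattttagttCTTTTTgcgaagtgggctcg
GAS5 (chr1:173869026-173869055, minus strand): tcatgaattcagatgtgtttattttggagc
EPB41L4A-AS1 (chr5:112160516-112160545, plus strand): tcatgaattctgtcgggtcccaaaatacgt
SNHG14 (chr15:24823598-24823627, plus strand): gtcctcctgcgccgacctcgaatgcggtcc
SNHG26 (chr7:22854230-22854259, plus strand): taaacttgatctccgcagtgccctcccttt
SNHG30 (chr17:35568104-35568133, plus strand): tgtaagacctgagccgggcggagaagcaaa

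RefSeq promoters were matched for 28 of the 32 members, all but SNHG6, SNHG9, SNHG15 and SNHG25. A pyrimidine run of this kind stood at the start of 13 of these 28 host genes (46.4%), beside 21.1% of all 35116 RefSeq promoters and 35.0% of the 160 promoters that RefSeq lists for 116 of the tested protein-coding genes that also carry snoRNAs. The share depends on which start RefSeq lists: the GAS5 start lies 163 bases upstream of the 5′ end in the count tables, and that of SNHG14 lies 154975 bases upstream. Some starts with a run were displaced too, by 464 bases downstream in ZFAS1, 308 in SNHG32 and 1259 in SNHG12. Host genes with the run were called in both directions. Of the 12 tested host genes with it, 1 was higher and 2 were lower with DAPT, and the median log2 fold change was 0.14. Of the 12 tested without it, 3 were higher and 2 were lower, and the median was -0.04. Of all tested genes, 17.2% were higher and 18.0% were lower. GAS5 and SNHG14 were counted as without the run, and ZFAS1 as with it, at the displaced starts. With so few calls and such starts, this split cannot show whether the run goes with a direction.

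Of the 32 host genes, 28 had enough reads to be tested. SNHG22 held between 1 and 6 reads in a library and SNHG31 between 3 and 8. SNHG27 and SNHG28 had no read in any of the 6 libraries, but all exonic bases of SNHG28 are shared with another gene on the same strand, where reads went uncounted. Counts were scaled to the library totals (CPM) with TMM factors and compared by edgeR's quasi-likelihood test, with p-values adjusted by Benjamini-Hochberg over all 15001 tested genes. A gene was called higher or lower at an adjusted p under 0.05.

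The libraries held between 12276313 and 16317672 counts. HES1, a Notch target gene and the check of the treatment, was at 42.5, 50.3 and 48.2 CPM in the controls and at 27.9, 27.2 and 27.3 CPM with DAPT (log2 fold change -0.77, adjusted p = 7.2e-08). The squamous markers KRT5, KRT6A, KRT17, TP63 and DSG3 were each above 180 CPM in every library, while KRT14 did not exceed 3.54 CPM, and all but DSG3 were lower with DAPT. Control replicate 1 and DAPT replicate 1 stood apart from the libraries of their own groups on the second and the third principal component. Control replicate 1 also held fibroblast transcripts: COL1A1 was at 273.5 CPM there and between 48.3 and 54.0 CPM in the other libraries, and COL1A2 was at 215.0 CPM beside 0.195 to 2.02 CPM. Summed over the list of 10 markers of other cell types, the level was 499.1 CPM in control replicate 1, 57.6 and 60.5 CPM in the other controls and 50.5 to 56.2 CPM with DAPT. Of the same list, 4 markers had under 3 counts in every library, among them PTPRC of leukocytes and PECAM1 of endothelium, and CD3E and MLANA had no count at all.

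Taken as a group, the host genes did not move one way. With DAPT, 4 of the 28 tested members were higher (14.3%, beside 17.2% of all tested genes) and 4 were lower (14.3%, beside 18.0%). With library size alone in place of TMM factors, the counts over all tested genes were 3445 higher and 2156 lower, against 2574 and 2707, while those of the members were 5 and 4. The other 20 members did not pass the test, 2 of them, SNHG6 and SNHG11, with an unadjusted p under 0.05. In 13 of 28 the DAPT and control libraries did not overlap (46.4%, beside 46.3% of all tested genes), with 6 above and 7 below the controls. The log2 fold changes ran from -0.51 to 0.37 with a median of 0.03, against a median of 0.01 over all tested genes, and no member reached a 2-fold change. In bulk RNA, fewer cells that express a gene and less of its RNA per cell cannot be told apart. The CPM summed over all 32 host genes was 1232, 1148 and 1168 in the controls and 1149, 1247 and 1172 with DAPT, so the groups overlapped.

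**Figure D1:**
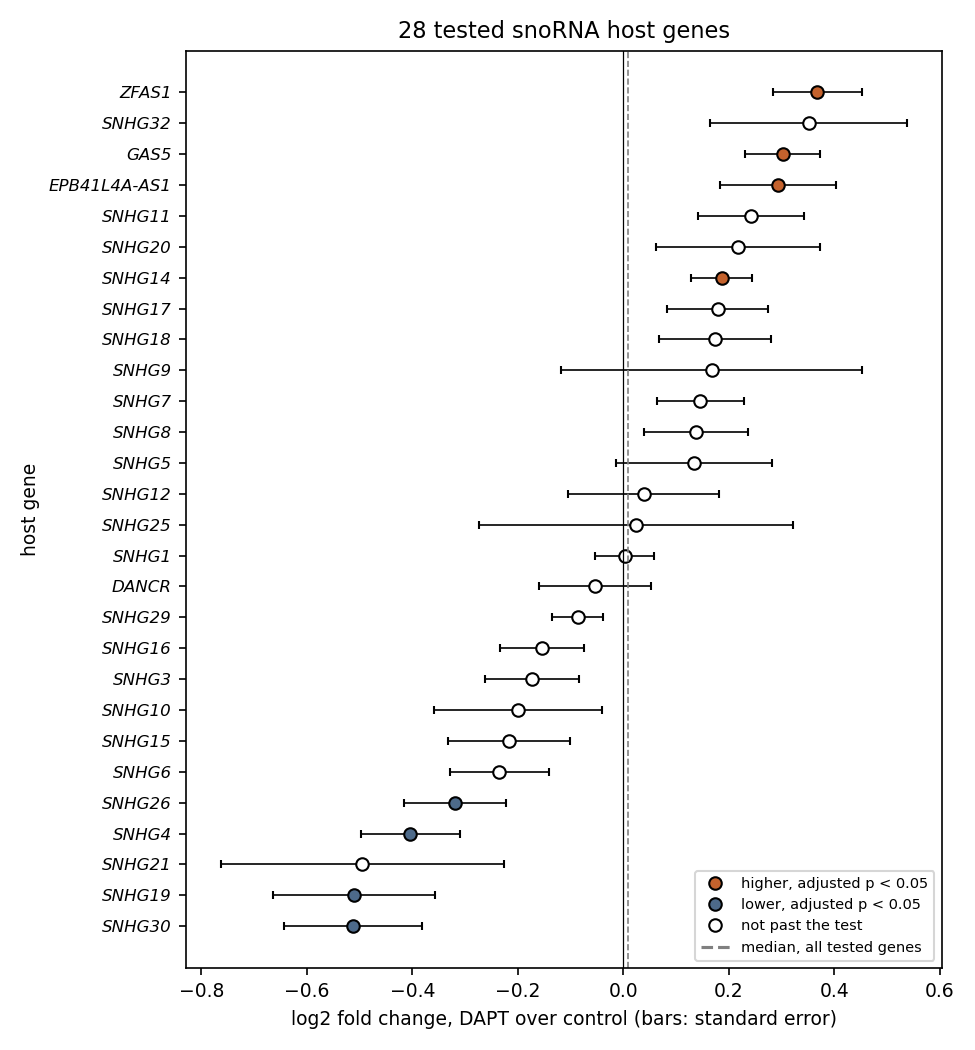
Log2 fold change, DAPT over control, of the 28 tested snoRNA host genes in order of size, with bars for the standard error (3 libraries in each group) and a dashed line at the median of all tested genes. The filled points are the 4 host genes called higher, led by ZFAS1 at 0.37, and the 4 called lower, down to SNHG30 at -0.51.

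Host genes of box C/D snoRNAs were found on both sides. ZFAS1 (ENSG00000177410, chromosome 20, 49278178 to 49295738 on GRCh38, plus strand) carries 3 SNORD12 family snoRNAs and overlaps the 5′ end of the helicase gene ZNFX1 on the other strand. ZFAS1 shares 20.9% of its exonic bases with other genes on the same strand, where reads were not counted. It was at 51.2, 42.2 and 44.4 CPM in the controls and at 66.8, 56.4 and 54.7 CPM with DAPT. The lowest DAPT library lay above the highest control, and ZFAS1 rose 1.29-fold (log2 fold change 0.37, SE 0.08, adjusted p = 0.00236). GAS5 (ENSG00000234741, chromosome 1, 173858559 to 173868882, minus strand) is named for its accumulation in growth-arrested cells and carries 10 SNORD genes and 1 SNORA gene in RefSeq. It was at 110.7, 109.9 and 97.9 CPM in the controls and at 119.5, 147.6 and 126.5 CPM with DAPT. The groups did not overlap, and GAS5 rose 1.23-fold (log2 fold change 0.30, SE 0.07, adjusted p = 0.00353). The calls of ZFAS1 and GAS5 held in all 18 alternative analyses, with adjusted p-values up to 0.016 and 0.0242.

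SNHG14 (ENSG00000224078, chromosome 15, 24978583 to 25419462, plus strand) is the imprinted transcript of the Prader-Willi and Angelman region, which holds the SNORD115 and SNORD116 clusters and runs antisense into UBE3A. It was at 66.3, 61.5 and 69.2 CPM in the controls and at 76.5, 74.7 and 72.8 CPM with DAPT. All DAPT libraries lay above all controls, although the rise was 1.14-fold (log2 fold change 0.19, SE 0.06, adjusted p = 0.016). Its exons share 10.8% of their bases with other genes on the same strand, SNRPN among them. The call was lost without control replicate 2 (log2 fold change 0.14, adjusted p = 0.133), without DAPT replicate 1 (0.17, adjusted p = 0.0622) and without DAPT replicate 2 (0.19, adjusted p = 0.0588).

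EPB41L4A-AS1 (ENSG00000224032, chromosome 5, 112160526 to 112164276, plus strand) carries the box H/ACA snoRNA SNORA13. It was at 11.5, 9.53 and 10.1 CPM in the controls and at 11.9, 12.9 and 13.7 CPM with DAPT. The groups were separated by a narrow gap, between control replicate 1 and DAPT replicate 1, and the rise was 1.23-fold (log2 fold change 0.29, SE 0.11, adjusted p = 0.0414). Of the 8 calls it was made in the fewest alternatives, 9 of 18. It was lost without control replicate 2 (log2 fold change 0.23, adjusted p = 0.179), control replicate 3 (0.27, adjusted p = 0.116), DAPT replicate 2 (0.29, adjusted p = 0.0982) or DAPT replicate 3 (0.25, adjusted p = 0.154), and with DESeq2 (adjusted p = 0.132) and limma-voom (adjusted p = 0.0504). Its exons overlap EPB41L4A on the other strand over 49.6% of their bases. Counting used the strand, and over 223 sense-antisense pairs the antisense gene had a median of 1.85% of the read density of its sense partner.

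**Figure D2:**
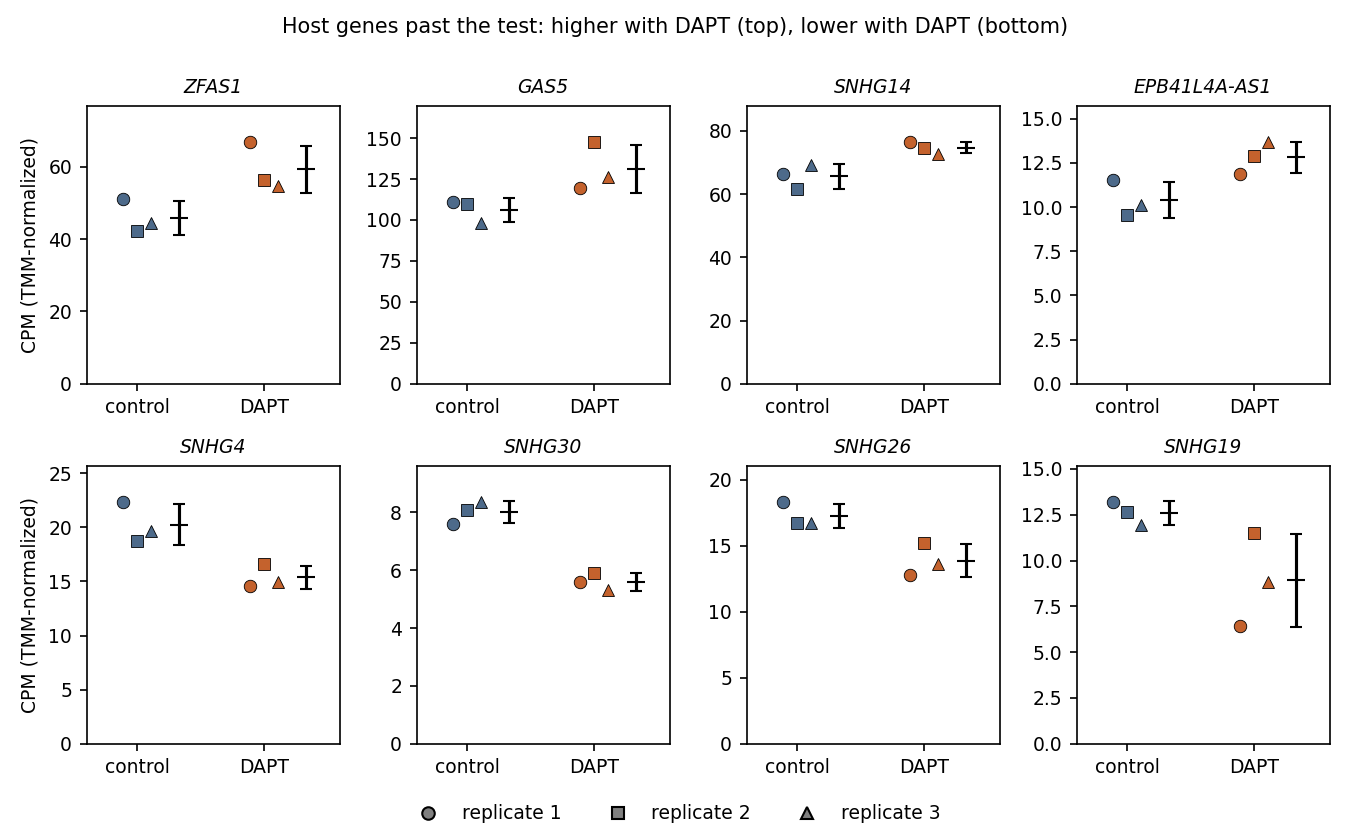
CPM with TMM factors in each library for the 8 host genes past the test, the 4 higher with DAPT in the top row and the 4 lower in the bottom row. Each point is a library, its shape the replicate number, and the bars give the mean ± SD (n = 3); in each panel the 3 DAPT libraries lie on one side of the 3 controls, by a narrow gap in EPB41L4A-AS1 and SNHG19.

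Among the host genes that fell, SNHG4 (ENSG00000281398, chromosome 5, 139274102 to 139284899, plus strand) carries SNORA74A and SNORA74D and lies in front of MATR3, a nuclear matrix protein gene. It was at 22.4, 18.7 and 19.7 CPM in the controls and at 14.6, 16.6 and 14.9 CPM with DAPT. Every DAPT library was below every control, at 0.756 times the control level (log2 fold change -0.40, SE 0.09, adjusted p = 0.00196). SNHG4 shares 14.0% of its exonic bases with MATR3 on the same strand, where reads were not counted. SNHG30 (ENSG00000267321, chromosome 17, 35568109 to 35574843, plus strand), the host of SNORD7, was at 7.60, 8.09 and 8.37 CPM in the controls and at 5.59, 5.92 and 5.30 CPM with DAPT. The gap between its groups was wider than the spread within either, and its log2 fold change was -0.51 (SE 0.13, adjusted p = 0.00422). Both calls held in all 18 alternatives, with adjusted p-values up to 0.0269 for SNHG4 and 0.0231 for SNHG30.

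SNHG19 and SNHG26 are also box C/D hosts. SNHG19 (ENSG00000260260, chromosome 16, 2154797 to 2155358, minus strand), the host of SNORD60, was at 13.2, 12.6 and 11.9 CPM in the controls and at 6.43, 11.5 and 8.84 CPM with DAPT. DAPT replicate 1 was the lowest and DAPT replicate 2 was close to the controls (log2 fold change -0.51, SE 0.15, adjusted p = 0.0168). The call was lost without control replicate 1 (log2 fold change -0.48, adjusted p = 0.0578), DAPT replicate 1 (-0.31, adjusted p = 0.0776) or DAPT replicate 3 (-0.51, adjusted p = 0.0591). Leaving out DAPT replicate 1 thus moved the log2 fold change the most towards 0. SNHG26 (ENSG00000228649, chromosome 7, 22854178 to 22861579, plus strand), the host of SNORD93, was at 18.3, 16.7 and 16.7 CPM in the controls and at 12.8, 15.2 and 13.6 CPM with DAPT. The groups did not overlap (log2 fold change -0.32, SE 0.10, adjusted p = 0.0133), and the call was lost without DAPT replicate 1 (-0.26, adjusted p = 0.0692).

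Libraries of one group differed from each other across many host genes. Among the controls, replicate 1, the library with the fibroblast transcripts, was the highest in 18 of the 28 tested members. Among the DAPT libraries, replicate 2 was the highest in 19 of 28 and replicate 1 the lowest in 15 of 28. The share of all genes in which a library was the highest or lowest was not computed. By another measure, control replicate 1 lay below the mean of the others of its group in 7 of the 28 members. DAPT replicate 2 did so in 5 and DAPT replicate 1 in 18. Over all tested genes each library lay below that mean in 48.2 to 51.3% of genes. The part of fibroblast RNA in the levels of host genes was not tested. Without control replicate 1 alone, 4 members were higher and 3 were lower, with SNHG19 the call that was lost. Of all tested genes, 2726 were then higher and 2892 lower.

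SNHG5, host of SNORD50A and SNORD50B, and SNHG32, host of SNORD48 and SNORD52, showed the split of DAPT replicate 1 most plainly. SNHG5 was at 45.6, 40.0 and 35.1 CPM in the controls and at 35.2, 49.9 and 48.2 CPM with DAPT. SNHG32 was at 24.0, 21.2 and 19.7 CPM in the controls and at 20.5, 33.1 and 30.0 CPM with DAPT. Other genes on the same strand share 29.1% of the exonic bases of SNHG32, where reads were not counted. In both genes DAPT replicate 1 lay within the range of the controls while DAPT replicates 2 and 3 lay above all controls. Neither passed the test over all 6 libraries, with a log2 fold change of 0.13 for SNHG5 (SE 0.15, adjusted p = 0.534) and 0.35 for SNHG32 (SE 0.19, adjusted p = 0.201). Without DAPT replicate 1 the values were 0.28 (adjusted p = 0.0253) and 0.54 (adjusted p = 1.22e-04). Other single libraries moved them as well. SNHG5 was at 0.04 without control replicate 3 (adjusted p = 0.867) or DAPT replicate 2 (adjusted p = 0.854), at 0.07 without DAPT replicate 3 (adjusted p = 0.788) and at 0.23 without control replicate 1 (adjusted p = 0.411). SNHG32 was at 0.21 without DAPT replicate 2 (adjusted p = 0.339). SNHG32 also passed over all libraries with no low-count filter (adjusted p = 0.00122) and in a fit that was not robust (adjusted p = 0.0485).

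SNHG16, host of 3 SNORD1 family snoRNAs, was split in the same way but downwards, at 73.5, 72.2 and 86.1 CPM in the controls and at 77.7, 64.2 and 65.8 CPM with DAPT. Only DAPT replicate 1 overlapped the controls. Its log2 fold change was -0.15 (SE 0.08, adjusted p = 0.145) over all libraries and -0.25 without DAPT replicate 1 (adjusted p = 0.0162), but -0.08 without control replicate 3 (adjusted p = 0.485) and -0.10 without DAPT replicate 2 (adjusted p = 0.414). SNHG11, host of SNORA60 and SNORA71E, was at 14.8, 12.9 and 14.7 CPM in the controls and at 15.1, 18.7 and 16.4 CPM with DAPT. Its groups did not overlap, but the difference did not pass the test (log2 fold change 0.24, adjusted p = 0.067), though it did without DAPT replicate 1 (0.32, adjusted p = 0.033) and with library size alone (0.29, adjusted p = 0.0294). Without DAPT replicate 2 it was at 0.16 (adjusted p = 0.316). Without both libraries that stood apart, control replicate 1 and DAPT replicate 1, 7 host genes were higher and 3 were lower, of which 4 and 2 were also called over all libraries. SNHG5, SNHG32 and SNHG11 joined those higher and SNHG16 those lower, while SNHG19 and SNHG26 no longer passed the test (adjusted p = 0.0943 and 0.116). Under this exclusion, which was chosen after seeing the data, 2795 of all 14964 tested genes were higher and 3060 were lower. Over all libraries these counts were 2574 and 2707 of 15001.

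**Figure D3:**
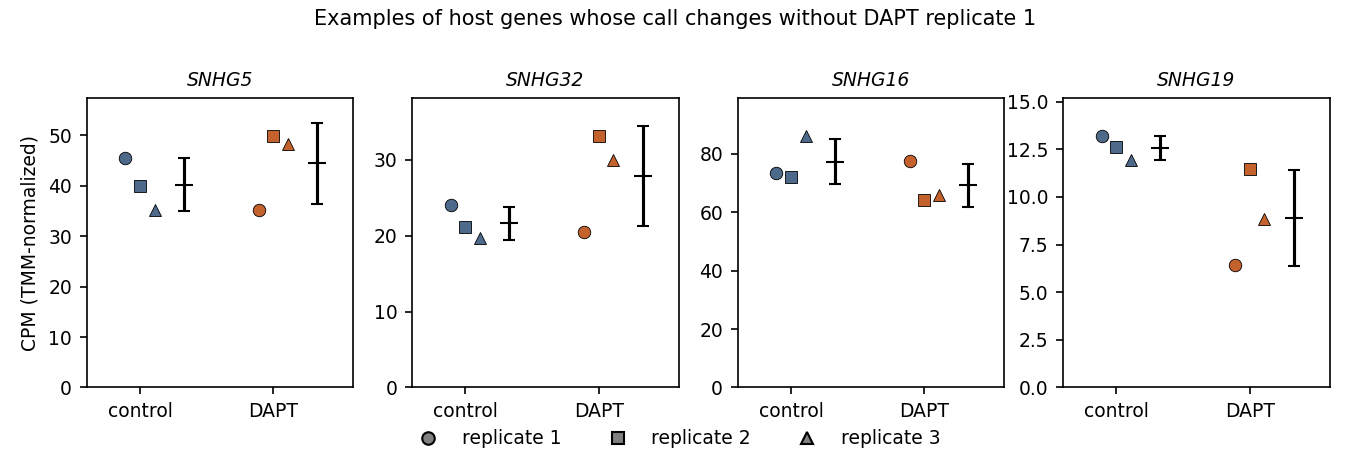
CPM with TMM factors in each library for SNHG5, SNHG32, SNHG16 and SNHG19, with points shaped by replicate number and bars for the mean ± SD (n = 3). In SNHG5, SNHG32 and SNHG16 the circle of DAPT replicate 1 lies among the controls, apart from DAPT replicates 2 and 3, and in SNHG19 it is the lowest of all libraries at 6.43 CPM.

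The 2 host genes with the highest read density did not pass the test. Per kilobase of exon, SNHG29 was the highest in the controls at 112.6 CPM per kb, followed by SNHG6 at 67.4 and SNHG19 at 36.8. Next were SNHG1 at 22.3, GAS5 at 21.9 and ZFAS1 at 20.5 CPM per kb. The lowest tested were SNHG14 at 0.807 and SNHG20 at 0.688 CPM per kb. The lengths include bases shared with other genes on the same strand, where reads were not counted, such as 5.7% in SNHG29 and 20.9% in ZFAS1. Densities of different host genes are therefore only roughly comparable. SNHG29, which carries SNORD49A, SNORD49B and SNORD65, was at 442.9, 412.2 and 414.9 CPM in the controls and at 389.9, 409.0 and 397.9 CPM with DAPT. All DAPT libraries were below all controls by a small margin (log2 fold change -0.09, SE 0.05, adjusted p = 0.173). SNHG6, the host of SNORD87, was at 94.2, 78.2 and 79.7 CPM in the controls and at 63.9, 81.4 and 69.6 CPM with DAPT (log2 fold change -0.23, SE 0.09, adjusted p = 0.075). DAPT replicate 2 was the one library that overlapped the controls, and SNHG6 passed the test without it (-0.33, adjusted p = 0.00526), with DESeq2 (adjusted p = 0.0425), with limma-voom (adjusted p = 0.0374), with no low-count filter (adjusted p = 0.00189) and in a fit that was not robust (adjusted p = 0.0366). The difference was smaller without control replicate 1 (-0.14, adjusted p = 0.20), the library with the fibroblast transcripts, without DAPT replicate 1 (-0.16, adjusted p = 0.208) and without both (-0.06, adjusted p = 0.418), and it did not pass the test in 13 of the 18 alternatives.

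SNHG1, the host of 8 SNORD genes, was at 87.7, 82.2 and 81.7 CPM in the controls and at 81.3, 88.0 and 83.0 CPM with DAPT. Its groups covered the same range (log2 fold change 0.00, SE 0.06, adjusted p = 0.979), and reads were left out over 15.3% of its exonic bases. DANCR, a host of SNORA26 named for its part in holding back differentiation, had a log2 fold change of -0.05 (SE 0.11, adjusted p = 0.729). SNHG12, host of SNORD99 and 3 SNORA genes, was at 0.04 (SE 0.14, adjusted p = 0.863).

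The other members that did not pass the test were given by their fitted changes. On the higher side the log2 fold changes were 0.22 for SNHG20, 0.18 for SNHG17, 0.17 for SNHG18, 0.17 for SNHG9, 0.15 for SNHG7, 0.14 for SNHG8 and 0.02 for SNHG25. On the lower side they were -0.49 for SNHG21, -0.22 for SNHG15, -0.20 for SNHG10 and -0.17 for SNHG3. SNHG21, a host of SCARNA15, had 15 to 28 counts in a library and shares 72.9% of its exonic bases with another gene, and although its groups did not overlap, the difference was not detectable at this depth (SE 0.27, adjusted p = 0.161). SNHG9 and SNHG25 had fewer than 40 counts in every library, with standard errors of 0.29 and 0.30. They share 23.0% and 48.6% of their exonic bases with other genes on the same strand. By cargo, the 12 tested hosts of SNORD genes alone held 2 higher and 3 lower calls (median log2 fold change -0.04). The 10 hosts of SNORA genes alone held 1 of each (median 0.14), and the 6 with both kinds or with SCARNA genes held 1 higher and 0 lower (median 0.03). Of all tested genes, 17.2% were higher and 18.0% were lower. The calls by cargo are too few to set the classes apart, and the difference between classes was not tested.

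1 transcript named as a host gene elsewhere fell outside the rule. RefSeq lists LINC00888 as SNHG33, and it was looked up after the other values were known. It was at 12.0, 12.1 and 12.4 CPM in the controls and at 17.2, 18.0 and 18.1 CPM with DAPT, with no overlap (log2 fold change 0.55, SE 0.09, adjusted p = 7.8e-05).

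The snoRNAs themselves had few counts in these libraries. The count tables hold 135 SNORD and SNORA genes inside 25 of the host genes, 84 of them inside SNHG14, and 104 had no count in any library. The 4 SCARNA genes inside other host genes had at most 5 counts. Of the 104, 44 overlap an exon of their host, where a read that touched both genes was not counted. The 2 that reached 10 counts in a library are shown with the sequence of their gene on GRCh38, with the box D motif and, where found, the box C motif in capitals; these boxes are where the C/D snoRNP proteins bind.
SNORD104 (chr17:64146083-64146152, plus strand): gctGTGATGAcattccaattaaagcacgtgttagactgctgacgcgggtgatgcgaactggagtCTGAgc
SNORD93 (chr7:22856613-22856686, plus strand): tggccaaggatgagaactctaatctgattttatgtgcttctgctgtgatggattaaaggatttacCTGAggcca

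SNORD104, inside SNHG25, had 37, 30 and 22 counts in the controls and 22, 25 and 32 with DAPT, with overlapping groups (log2 fold change -0.16, SE 0.25, adjusted p = 0.642). SNORD93, inside SNHG26, had 14, 21 and 11 counts in the controls and 18, 7 and 7 with DAPT (log2 fold change -0.53, SE 0.38, adjusted p = 0.297). Its groups overlapped through DAPT replicate 1, whereas the host SNHG26 fell. No other snoRNA inside a host gene had more than 7 counts in a library. Levels of mature snoRNAs were therefore not measured by these libraries, which were made for mRNA.

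Several host genes share a start region with a gene on the other strand. A start within 1000 bases on the opposite strand was found in 11 pairs with 10 host genes, and 10 of the partners were tested. ZBTB37, a zinc finger gene that overlaps the 5′ end of GAS5, was at 11.3, 7.58 and 10.2 CPM in the controls and at 11.6, 13.5 and 12.5 CPM with DAPT. It was higher without overlap (log2 fold change 0.37, SE 0.13, adjusted p = 0.029), as GAS5 was. ZNFX1, the partner of ZFAS1, was at 166.4, 151.6 and 154.3 CPM in the controls and at 190.4, 170.8 and 174.4 CPM with DAPT. It was also higher, by 0.18 on the log2 scale (SE 0.05, adjusted p = 0.0131), beside 0.37 for ZFAS1.

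The other pairs were given side by side. SLC3A2, the heavy chain of amino acid transporters, starts 188 bases from SNHG1 and was higher (log2 fold change 0.23, SE 0.07, adjusted p = 0.0272), with DAPT replicate 1 within the range of the controls, whereas SNHG1 was at 0.00. RPS2, a ribosomal protein gene 118 bases from SNHG9, was lower (-0.13, SE 0.05, adjusted p = 0.0437), with overlapping groups. TRAF7, 340 bases from SNHG19, did not pass the test (-0.13, SE 0.06, adjusted p = 0.101) beside -0.51 for SNHG19. SEMA5A beside SNHG18 was at 0.04 (adjusted p = 0.786) and ENSG00000267546 beside SNHG16 at -0.09 (adjusted p = 0.873). Of the partners of untested host genes, BARD1 beside SNHG31 was lower (-0.24, adjusted p = 0.0313), and ACAA2 beside SNHG22 (-0.19, adjusted p = 0.0624) and ENSG00000272668 beside SNHG28 (0.37, adjusted p = 0.0529) did not pass the test. The difference between a host gene and its partner was not tested.

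**Figure D4:**
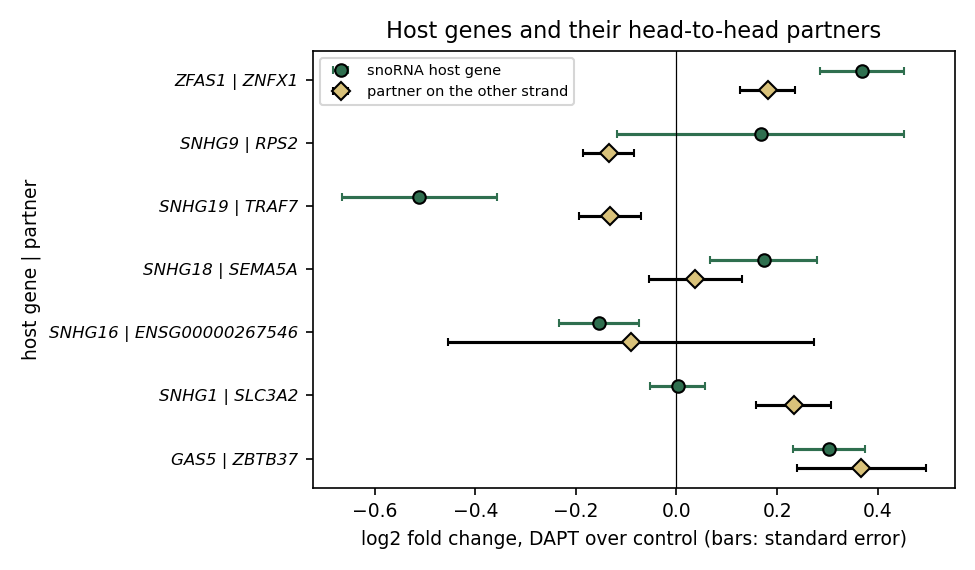
Log2 fold change, DAPT over control, of 7 tested host genes (circles) and of their tested partners on the other strand (diamonds), with bars for the standard error (3 libraries in each group). GAS5 and ZFAS1 lie above 0 together with their partners, while SNHG1 lies at 0.00 and SLC3A2 at 0.23.

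An E-box, CACGTG, which is bound by MYC among other factors, was searched on both strands of the promoters, from 250 bases before to 50 after the start. It was found in 2 of the 28 host genes (7.14%), beside 7.26% of all RefSeq promoters. The stretches around it are shown with the E-box in capitals, since 1 of the 2 lies in front of SNHG30, which fell.
SNHG30 (chr17:35568037-35568066, plus strand): ctcaggggcgccCACGTGacccgatggccg
SNHG7 (chr9:136728289-136728318, minus strand): ctgagcagcgccCACGTGcgggcgcgggga

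The element TGATGNAA, bound by dimers of ATF4, was in 0 of the 28 host gene promoters, beside 3.62% of all promoters. These letters are not in these windows, which says nothing about the factor.

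Proteins that assemble or form snoRNPs were described beside the host genes, as a list chosen with earlier results of these data known. Of 17 tested, 11 were lower (64.7%, beside 18.0% of all tested genes) and 0 were higher (beside 17.2%), and the median log2 fold change was -0.19. Fibrillarin (FBL), the methyltransferase of box C/D snoRNPs, was at 74.9, 68.1 and 79.2 CPM in the controls and at 46.3, 46.9 and 49.8 CPM with DAPT (log2 fold change -0.64, SE 0.06, adjusted p = 1.15e-07). Its levels with DAPT lay well below all controls. NOP56 and NOP58, also core proteins of box C/D particles, were lower by smaller amounts (-0.22, adjusted p = 0.00189, and -0.23, adjusted p = 0.00145). Of the box H/ACA core proteins, NHP2 (-0.35, adjusted p = 0.00124), NOP10 (-0.22, adjusted p = 0.0177) and GAR1 (-0.25, adjusted p = 0.0414) were lower, and DKC1, the pseudouridine synthase, did not pass the test (-0.09, adjusted p = 0.167). PIH1D1, an assembly factor, was lower as well (-0.48, adjusted p = 2.82e-05), as were SNU13 (-0.19, adjusted p = 0.0219), the helicases RUVBL1 (-0.18, adjusted p = 0.0177) and RUVBL2 (-0.21, adjusted p = 0.0198) and the chaperone NOLC1 (-0.15, adjusted p = 0.0379). The count of lower calls depended on the scaling and on single libraries: it was 5 when library size alone was used, 6 without control replicate 2, control replicate 3 or DAPT replicate 2, and 5 without DAPT replicate 3. The lower calls of all tested genes fell in these fits as well, from 2707 to between 2156 and 2286.

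Factors of nonsense-mediated decay and of the exon junction complex numbered 21 tested genes, of which 6 were higher (28.6%, beside 17.2% of all tested genes) and 1 was lower (4.76%, beside 18.0%), and the median log2 fold change was 0.12. UPF3A (0.37, adjusted p = 1.71e-04), CASC3 (0.29, adjusted p = 1.81e-04), XRN1 (0.26, adjusted p = 9.26e-04), UPF3B (0.26, adjusted p = 0.00828), SMG5 (0.26, adjusted p = 2.6e-04) and the kinase SMG1 (0.25, adjusted p = 3.85e-04) were higher. EIF4A3, the helicase of the exon junction complex, was lower (-0.30, adjusted p = 5.31e-04), and the central helicase UPF1 was at 0.00 (SE 0.06, adjusted p = 0.987). With library size alone the higher calls were 10. Among 9 protein-coding transcripts known as substrates of this decay, 5 were higher (55.6%, beside 17.2%) and 1 was lower (11.1%, beside 18.0%), with a median of 0.47. The stress-response genes DDIT3 (1.25, adjusted p = 1.32e-09), GADD45A (0.77, adjusted p = 2.23e-07), ATF3 (0.68, adjusted p = 0.00317) and ATF4 (0.51, adjusted p = 1.15e-07) and the cysteine tRNA ligase CARS1 (0.47, adjusted p = 3.63e-07) were higher, and UPP1 was lower (-0.35, adjusted p = 0.00301). These genes are also known to be transcribed in response to stress, and RNA decay itself was not measured. The lists of decay factors and substrates were also chosen with earlier results of these data known, so their shares are descriptions only. The non-coding host genes, with a median of 0.03, included 4 higher and 4 lower of 28.

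snoRNAs also lie in introns of protein-coding genes, many of them for ribosomal proteins and translation factors. Of 160 such genes, 142 were tested, of which 26 were higher (18.3%, close to the 17.2% of all tested genes) and 40 were lower (28.2%, beside 18.0%). Their median log2 fold change was -0.07, and with library size alone the calls were 32 higher and 31 lower. Their summed level was 41465, 41594 and 40784 CPM in the controls and 37653, 38850 and 38649 CPM with DAPT. The sums did not overlap, unlike those of the 32 non-coding host genes. The smallest adjusted p-values among the lower ones were those of RANBP1 (-0.59, adjusted p = 3.33e-09), EEF1B2 (-0.41, adjusted p = 1.23e-06) and the ribosomal protein gene RPL3 (-0.42, adjusted p = 2.61e-06), and among the higher ones those of the isoleucine tRNA ligase IARS1 (0.56, adjusted p = 2.32e-08), the ornithine decarboxylase ODC1 (0.37, adjusted p = 1.88e-05) and RAB3GAP1 (0.33, adjusted p = 2.75e-05). The difference between protein-coding and non-coding hosts was not tested. The higher calls among the protein-coding hosts fell to 13 without control replicate 3 or DAPT replicate 2 and to 16 without DAPT replicate 3. Those of all tested genes fell as well, from 2574 to 1901, 1984 and 2046 in the same order.

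**Figure D5:**
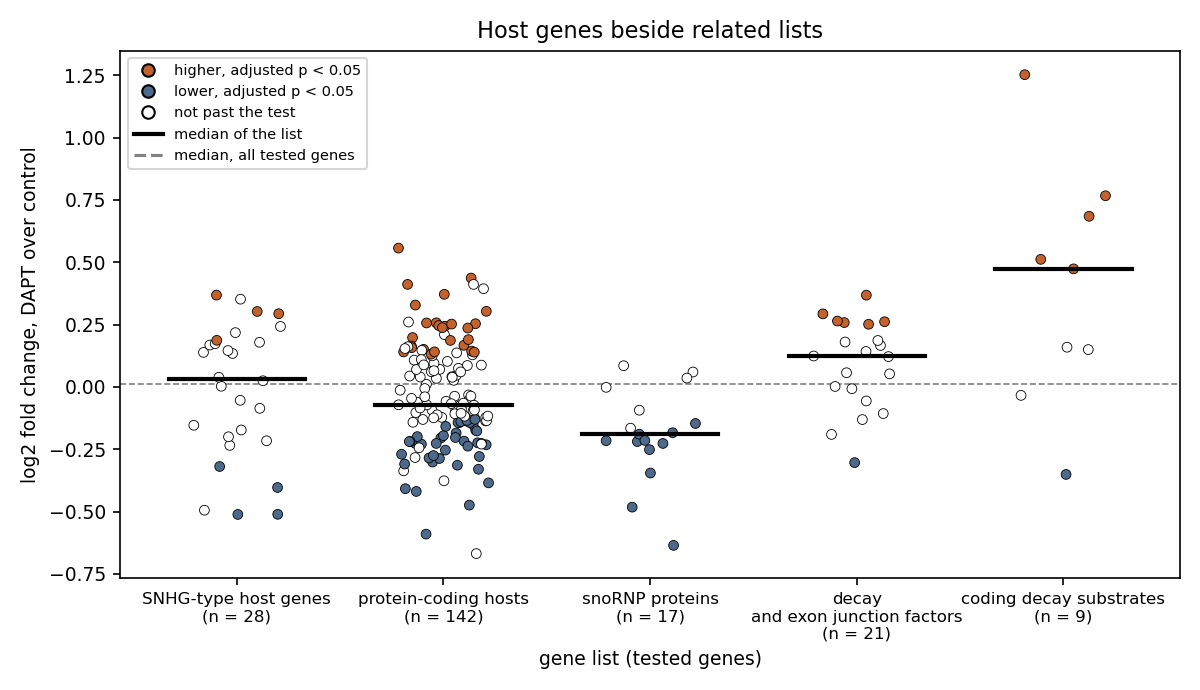
Log2 fold change, DAPT over control, of the tested genes of 5 lists, each point a gene, with thick lines at the list medians and a dashed line at the median of all tested genes; sideways placement is random. The SNHG-type host genes spread on both sides of 0 with a median of 0.03, the snoRNP proteins had a median of -0.19, and 5 of 9 coding decay substrates were called higher.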

How the data were processed

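The authors prepared stranded libraries, used Trim Galore for trimming and HISAT2 for alignment to GRCh38 and, per the file headers, counted reads with featureCounts 1.6.3 on the strand of each gene (Ensembl annotation release 96), whereas the labels list HTSeq and DESeq2. The deposited values are raw counts per gene and library, without normalization. Reads that overlapped several genes or mapped to several places were not counted by the defaults of that tool. Symbols came from GENCODE 44 for 58472 of 58884 identifiers. Genes were kept with filterByExpr at a minimum of 10 counts, scaled with TMM factors and fitted with the robust quasi-likelihood test of edgeR 4.0.16 in R 4.3.3, with no replicate block. The fit was tested on simulated data. DESeq2 1.42.0, limma 3.58.1, other scalings, filters and thresholds, and each library left out were alternatives. The exclusion of control replicate 1 together with DAPT replicate 1 was added after seeing the data. Named were all members, all called genes and up to 4 others of the lists of snoRNP proteins and decay factors and substrates, the 3 smallest adjusted p-values in each direction of the protein-coding hosts, every tested partner on the other strand, and snoRNAs with at least 10 counts in a library. The members and lists were chosen with earlier results of these data known. Promoter windows came from RefSeq (GRCh38.p14), and a match of letters is a description only. Squamous markers and markers of other cell types were checked.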

Additional observations from a re-analysis of the deposited data

How the results depend on the processing

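Of the 504 member results under the 18 alternatives, 467 kept their side of the threshold, 21 lost the call and 16 gained one. The 8 called members kept their direction in all of them, and 5 uncalled members (SNHG1, SNHG9, SNHG12, SNHG25 and DANCR) changed sign in at least 1 without passing the test. The count of host genes higher ranged from 2 to 6 and the count lower from 3 to 5 when 1 library was left out. Over all tested genes these counts ranged from 1901 to 2726 and from 2190 to 2892. At an adjusted p under 0.01 there were 2 host genes higher and 2 lower. Without control replicate 1 and DAPT replicate 1, an exclusion chosen after seeing the data, 7 host genes were higher and 3 lower. The protein-coding hosts then held 29 higher and 53 lower, and all tested genes 2795 and 3060. At the threshold of 0.01, 1516 of all tested genes and 11 of the protein-coding hosts were higher. The protein-coding hosts higher ranged from 13 to 27 without 1 library. With library size alone, 3445 of all tested genes were higher and 2156 lower, against 2574 and 2707 with TMM factors, and the median log2 fold change of all genes was 0.06 in place of 0.01. With a replicate block, 3 host genes were higher and 4 lower, EPB41L4A-AS1 being the call that was lost. Same-numbered libraries deviated together hardly at all (correlations of 0.0173, 0.0252 and 0.0038 over 15001 genes). No shared deviation was visible, but these values cannot tell whether same-numbered cultures were set up together, which the labels do not say. The cause of these changes was not tested. Host genes with few counts (SNHG9, SNHG21 and SNHG25) are limited by depth.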
